A study of Mus musculus with 2 samples.

Results

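The cadherins and protocadherins of the embryonic mouse stomach were described in 2 libraries of total RNA. The members were the protein-coding genes whose GENCODE mouse symbol is Cdh followed by a number or begins with Pcdh, without Cdh5, Cdh17 and Cdh19, and 89 of the 43346 Ensembl genes in the tables met this rule. They comprised 20 Cdh genes, 57 clustered protocadherins (14 Pcdha, 22 Pcdhb and 21 Pcdhg genes) and 12 non-clustered protocadherins. The tissue was whole stomach of healthy B6NCrl embryos at embryonic day 16.5, with males and females pooled. The 2 libraries were biological replicates of 1 group, made from RNA longer than 200 nt with 10 ng per library, and the labels gave 41 embryos for replicate 2 and no number for replicate 1. The labels named no mutation, transgene or treatment. No conditions were therefore compared. The data answered which family members this organ transcribed and how closely the pools matched.

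Cadherins are membrane proteins whose extracellular repeats bind calcium and join neighbouring cells, mostly to cells carrying the same cadherin. The classical cadherins hold catenins at their cytoplasmic tails and through them the actin cytoskeleton. Type I classical cadherins shape epithelia and other cohesive tissues, and type II classical cadherins are best known from mesenchyme and nervous system. Most clustered protocadherins are made by choosing 1 variable first exon out of a tandem array, and in the Pcdha and Pcdhg clusters that exon is spliced to constant exons common to the whole cluster. Neurons use these choices to tell their own branches from those of other cells. Non-clustered protocadherins, among them the delta-1 and delta-2 groups, act in cell sorting and in the wiring of neural circuits.

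The expected counts summed to 44567153 in replicate 1 and 25677702 in replicate 2. Members took 0.165% and 0.172% of the counts on genes in replicates 1 and 2, and the deeper replicate 1 had the smaller counting error. The stomach identity list was detected in full (11 of 11 genes), and Cym, the chymosin gene, was its highest member at 6131 TPM in replicate 1 and 10063 TPM in replicate 2. Levels are in TPM, which corrects reads for transcript length and for the library total, and a gene was called detected when it reached 1 TPM in each library. Lists of smooth muscle (highest gene Acta2, 2117 and 2612 TPM), erythroid (Hba-a2, 11476 and 11128), macrophage (Lyz2, 279 and 189), mesothelium (Tcf21, 166 and 160) and glial genes (Fabp7, 42.9 and 42.4) were also present, with 10 of 10, 8 of 8, 8 of 8, 6 of 6 and 7 of 9 genes detected. Tcf21 is not particular to mesothelium. The next gene of that list by mean level was Upk1b, at 61.4 TPM in replicate 1 and 86.4 TPM in replicate 2. The tissue was thus a mixture of cell types, and in such bulk samples fewer cells of a type and less RNA per cell cannot be told apart. The replicates differed far beyond sampling noise, with a chi-square per degree of freedom of 26.0 over 18491 genes, and were counted as 2 samples. The list of skeletal muscle genes summed to 2844 TPM in replicate 1 and 361 TPM in replicate 2. Of these sums, Des, which is not particular to skeletal muscle, held 157 and 140 TPM.

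Of the 89 members, 47 (52.8%) were detected, beside 64.3% of all 21474 protein-coding genes. The share differed by class. Non-clustered protocadherins were detected in 10 of 12 cases (83.3%), Cdh genes in 11 of 20 (55.0%) and clustered protocadherins in 26 of 57 (45.6%). Among the clustered genes, 18 of 21 Pcdhg genes, 8 of 22 Pcdhb genes and 0 of 14 Pcdha genes reached 1 TPM in both libraries. A count of 10 or more in both libraries was reached by 81 of the 89 members, beside 15309 of 21474 protein-coding genes (71.3%). Most members below 1 TPM were thus low rather than without reads. The members' share was above that of all protein-coding genes by this count and below it at 1 TPM, so the comparison depends on the measure.

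The summed level of all members was 553 TPM in replicate 1 and 608 TPM in replicate 2. Cdh genes made up 319 and 364 TPM of it, clustered protocadherins 117 and 130 TPM, and non-clustered protocadherins 117 and 115 TPM. Cdh1 alone took 31.5% and 36.7% of the members' TPM in replicates 1 and 2, and Cdh1 with Cdh11 took 45.2% and 48.8%. The sum of the Cdh class thus rested on a pair of genes. The typical gene ranked otherwise: the median level was 4.53 and 4.47 TPM for non-clustered protocadherins, 1.35 TPM in both libraries for Cdh genes, and 0.98 and 0.96 TPM for clustered protocadherins. On the log2(TPM + 0.1) scale the class median of the non-clustered protocadherins lay 2.10 ± 0.007 above that of the clustered ones and 1.67 ± 0.017 above that of the Cdh genes (SD, n = 2 libraries). The Cdh median lay 0.43 ± 0.024 above the clustered median. Each difference had the same sign in both libraries, for which the exact two-sided sign-flip test gives p = 0.5, the smallest value that 2 libraries allow. Ranked by sums instead, the Cdh genes led and the non-clustered minus the clustered sum was -0.087 on the log2 scale.

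**Figure D1:**
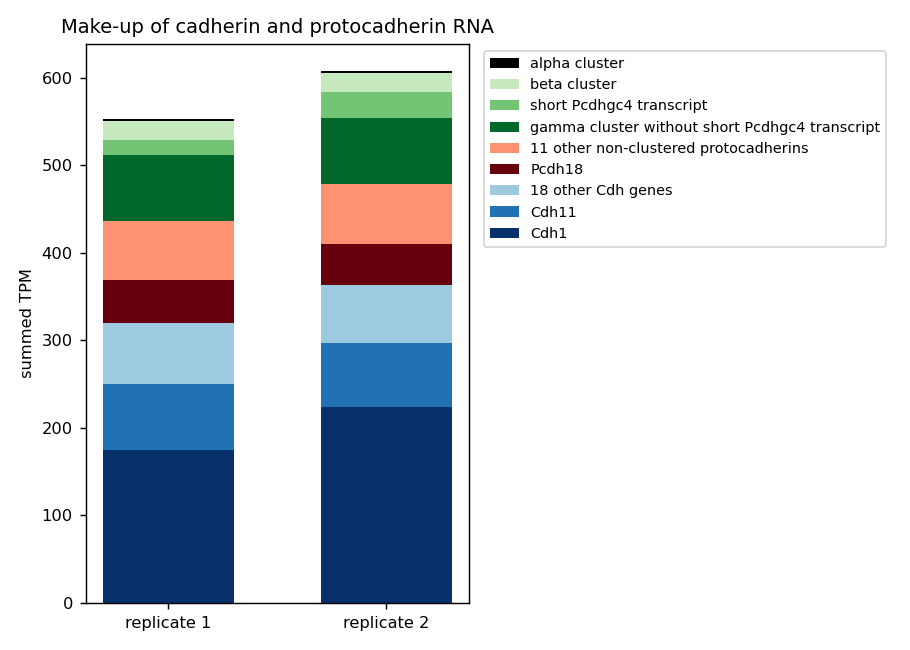
Stacked bars of the summed TPM of all 89 members in replicate 1 (left) and replicate 2 (right), split by gene or group. Cdh1 is the largest block in both bars (174.5 and 223 TPM), and the Pcdha cluster at the top is barely visible (2.68 and 2.87 TPM).

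Among the type I classical cadherins, Cdh1, which encodes E-cadherin, the main adhesion protein of epithelia, was the highest of all members. Cdh1 (ENSMUSG00000000303; chromosome 8, 106603351 to 106670246, plus strand, GRCm38) stood at 174.5 TPM in replicate 1 and 223 TPM in replicate 2, a mean of 199 ± 34.6 (SD, n = 2). It ranked 690 among the protein-coding genes, and its log2 ratio of replicate 1 over replicate 2 was -0.31, with an exact binomial 95% interval, for counting error only, of -0.34 to -0.28. Cdh3, which encodes P-cadherin of basal epithelial layers and lies beside Cdh1 on chromosome 8 (106510891 to 106557297), stood at 14.9 and 15.5 TPM. Cdh2, the N-cadherin gene of neural and mesenchymal tissue (chromosome 18, 16588877 to 16809246), stood at 16.8 and 16.7 TPM. Cdh2 and Cdh3 differed little between the libraries and lay far below Cdh1. Cdh4, which encodes R-cadherin, stood at 3.52 and 3.73 TPM. Cdh15, which encodes M-cadherin of myoblasts, stood at 2.75 TPM in replicate 1 and 0.68 TPM in replicate 2, the largest ratio between libraries of any Cdh gene.

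Markers of epithelium stood beside Cdh1 at high levels. The simple epithelium list was detected in 12 of 12 genes, led by the keratin gene Krt8 at 1017 TPM in replicate 1 and 1302 TPM in replicate 2, and it summed to 3873 and 4852 TPM. The squamous epithelium list was detected in 12 of 12 genes as well, led by Krt4 at 1787 and 3252 TPM, and it summed to 6674 and 10770 TPM. Both sums were lower in replicate 1, as was Cdh1. The log2 ratio of replicate 1 over replicate 2 was below 0 for 11 of 12 simple epithelium genes (median -0.29) and 12 of 12 squamous genes (median -0.53), against -0.31 for Cdh1 and a median of 0.0049 over all protein-coding genes. The shift was not confined to epithelium, as 10 of 10 smooth muscle genes also lay below 0 (median -0.19). Cdh3 did not share the shift, at -0.021. The part of the epithelial share in the Cdh1 value was not tested.

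Among the type II classical cadherins, Cdh11 stood apart from the rest. Cdh11, known from mesenchyme and bone-forming cells (ENSMUSG00000031673; chromosome 8, 102632095 to 102785642, minus strand), stood at 75.8 TPM in replicate 1 and 73.4 TPM in replicate 2. Cdh6, first known from kidney, followed at 6.39 and 5.87 TPM. Of the 11 type II genes, 6 were detected. The 4 lower detected genes were Cdh24 (2.08 and 1.57 TPM), Cdh18 (1.49 and 1.69), Cdh10 (1.20 and 1.31) and Cdh8 (1.13 and 1.38), of which the last 3 are best known from the nervous system. Cdh24 and Cdh18 changed places between the libraries, as did Cdh10 and Cdh8, so the order within these pairs did not exceed the spread between libraries. Cdh7, Cdh9, Cdh12, Cdh20 and Cdh22 remained below 0.5 TPM in both libraries, and Cdh20 was the lowest Cdh gene at 0.13 and 0.09 TPM (16 and 6 expected counts). The list of fibroblast and matrix genes was detected in 10 of 10 genes, was led by Col3a1 at 2405 TPM in replicate 1 and 2771 TPM in replicate 2, and summed to 6338 and 6906 TPM.

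Of the 4 further Cdh genes that are neither type I nor type II, only Cdh13 was detected in both libraries. Cdh13, which encodes the tail-less T-cadherin that binds adiponectin, stood at 15.1 TPM in replicate 1 and 15.6 TPM in replicate 2. Cdh16, a cadherin of kidney tubules, stood at 1.04 and 0.68 TPM on 93 and 34 counts. The kidney tubule list beside it was nearly silent: 1 of 8 genes was detected, 4 genes were below 0.1 TPM in both libraries, and Umod was at 0. Cdh23, which forms the tip links of inner ear hair cells, stood at 0.43 and 0.36 TPM, and Cdh26 at 0.65 and 0.44 TPM.

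Non-clustered protocadherins were led by a delta-2 gene. Pcdh18, whose product binds the adaptor Dab1 (ENSMUSG00000037892; chromosome 3, 49743296 to 49757325, minus strand), stood at 49.7 TPM in replicate 1 and 46.7 TPM in replicate 2. The other detected delta-2 genes were Pcdh17 (4.78 and 4.58 TPM) and the X-linked Pcdh19 (2.60 and 3.54 TPM), both known from neural circuits and, in humans, Pcdh19 from epilepsy. Pcdh10 (0.52 and 0.48 TPM) and the synaptic gene Pcdh8 (0.22 and 0.27 TPM) were the 2 non-clustered genes below 1 TPM. Pcdh18 alone made up 49.7 of 57.8 TPM of the delta-2 group in replicate 1 and 46.7 of 55.6 TPM in replicate 2.

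The 4 delta-1 genes were all detected. Pcdh1, known from airway epithelium (chromosome 18, 38185914 to 38212053), stood at 17.7 TPM in replicate 1 and 22.1 TPM in replicate 2. Pcdh9 stood at 19.5 and 15.2 TPM, so the order of Pcdh1 and Pcdh9 differed between the libraries. Pcdh7 stood at 6.83 and 6.52 TPM and the X-linked Pcdh11x at 4.27 and 4.35 TPM. The remaining 3 genes of the class were Pcdh12, a protocadherin of endothelium (6.05 and 6.17 TPM), Pcdh20 (3.17 and 3.64 TPM) and Pcdh15, the tip-link partner of Cdh23 (1.58 and 1.47 TPM). The endothelium list was detected in 10 of 10 genes, with Egfl7 highest at 93.9 TPM in replicate 1 and 101 TPM in replicate 2. The enteric neuron list was detected in 11 of 12 genes, with Uchl1 highest at 59.9 TPM in replicate 1 and 52.1 TPM in replicate 2.

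**Figure D2:**
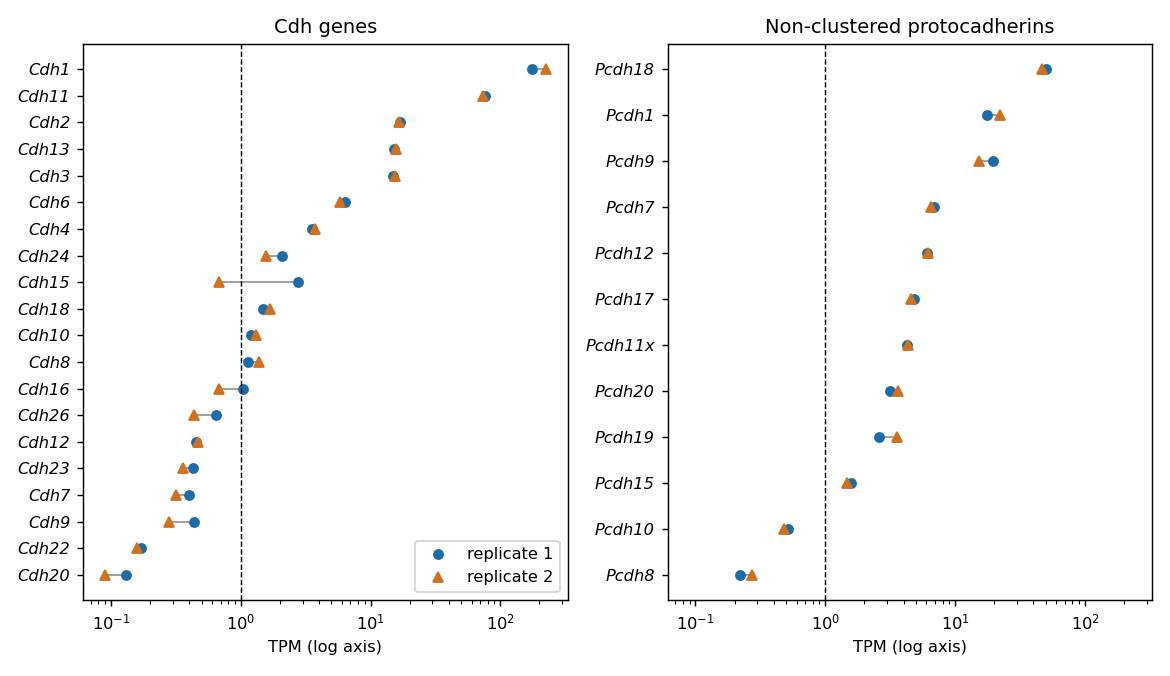
TPM on a log axis of the 20 Cdh genes (left) and the 12 non-clustered protocadherins (right), ordered by mean, with circles for replicate 1, triangles for replicate 2 and the dashed line at 1 TPM. The paired points mostly coincide, and Cdh15 shows the widest gap on this log scale (2.75 against 0.68 TPM).

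The Pcdha, Pcdhb and Pcdhg genes follow each other on the plus strand of chromosome 18, with the Pcdha genes at 36930184 to 37187661, the Pcdhb genes at 37264938 to 37524479 and the Pcdhg genes at 37661793 to 37841873. Their summed levels differed widely. The Pcdhg genes summed to 93.2 TPM in replicate 1 and 105 TPM in replicate 2, the Pcdhb genes to 21.1 and 22.0 TPM, and the Pcdha genes to 2.68 and 2.87 TPM. The layout of the clusters limits what a gene value means: exonic bases shared with other genes of the cluster made up 48.6% to 54.9% of the longest transcript of Pcdha genes and a median of 45.0% for Pcdhg genes, so reads on them had to be split between genes in the authors' estimate. Pcdhb genes have no constant exons, and the shared part of their longest transcripts was 0 at the median and 9.67% at most. The deposited posterior SD of the count, which reflects that splitting, had a median of 21.3% and 21.2% of the count for Pcdha genes, 4.87% and 6.23% for Pcdhg genes, and 0 in both libraries for Pcdhb genes. Outside the clusters it was at most 2.84% and 5.90%.

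Within the Pcdhg cluster, the C-type genes Pcdhgc3 and Pcdhgc4 had the highest values. Pcdhgc3 (chromosome 18, 37806364 to 37841873), known for its part in dendrite branching, stood at 29.8 TPM in replicate 1 and 30.7 TPM in replicate 2. Pcdhgc4 (37815079 to 37841873), known for its part in neuronal survival, stood at 21.4 and 32.9 TPM. Together they took 54.9% and 60.8% of the cluster. Most of Pcdhgc4 was 1 short transcript (ENSMUST00000195239, 2272 nt), which carried 83.2% and 90.0% of the gene, and 93.3% of whose exonic bases are also exons of other Pcdhg genes. Without that transcript, a step chosen after seeing the data, Pcdhgc4 stood at 3.60 and 3.29 TPM and the whole cluster at 75.4 and 75.0 TPM, of which the pair made up 44.3% and 45.3%. Pcdhgc3 then remained far above the other Pcdhg genes. The transcript's reads cannot be assigned to the Pcdhgc4 promoter with certainty.

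By mean level the third-ranked Pcdhg gene was Pcdhgb6, at 4.74 TPM in replicate 1 and 6.25 TPM in replicate 2, close to Pcdhga7 at 4.80 and 5.19 TPM. The lowest was Pcdhgc5, at 0.84 and 0.59 TPM, although it is a C-type gene like Pcdhgc3. Besides Pcdhgc5, only Pcdhga1 (0.98 and 1.53 TPM) and Pcdhga9 (1.29 and 0.97 TPM) missed 1 TPM in a library. The detected genes spanned the array from Pcdhga2 to Pcdhgc4.

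Within the Pcdhb cluster the levels were lower and more even. Pcdhb20 was highest at 2.59 TPM in replicate 1 and 3.15 TPM in replicate 2, ahead of Pcdhb17 at 2.06 and 2.02 TPM and Pcdhb7 at 1.99 and 2.01 TPM. Pcdhb1, the first gene of the cluster, was the only member with 0 expected counts in both libraries. A count of 0 allows up to 3 counts, so its level cannot be told from a very low one at this depth. The order of the Pcdhb genes was alike in the 2 libraries, with a Spearman rho of 0.926 over 22 genes, and it was 0.932 over 21 Pcdhg genes and 0.683 over 14 Pcdha genes. These are descriptions across genes, which are not independent replicates.

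The Pcdha cluster was the lowest group in the family. Pcdha9 was highest at 0.41 TPM in replicate 1 and 0.42 TPM in replicate 2, ahead of the gene ENSMUSG00000007440 at 0.38 and 0.33 TPM and Pcdha12 at 0.29 and 0.35 TPM. GENCODE gives the symbol Pcdha11 to both ENSMUSG00000007440, where RefSeq of the same build places Pcdha10, and ENSMUSG00000102206, so these are named by identifier. Pcdha1 had the lowest mean, at 0 TPM in replicate 1 and 0.02 TPM in replicate 2, next to Pcdha8 at 0.06 and 0 TPM. The C-type genes of this cluster, Pcdhac1 (0.10 and 0.13 TPM) and Pcdhac2 (0.34 and 0.26 TPM), lay within the range of the others. All 14 genes together drew 411 expected counts in replicate 1 and 247 in replicate 2.

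**Figure D3:**
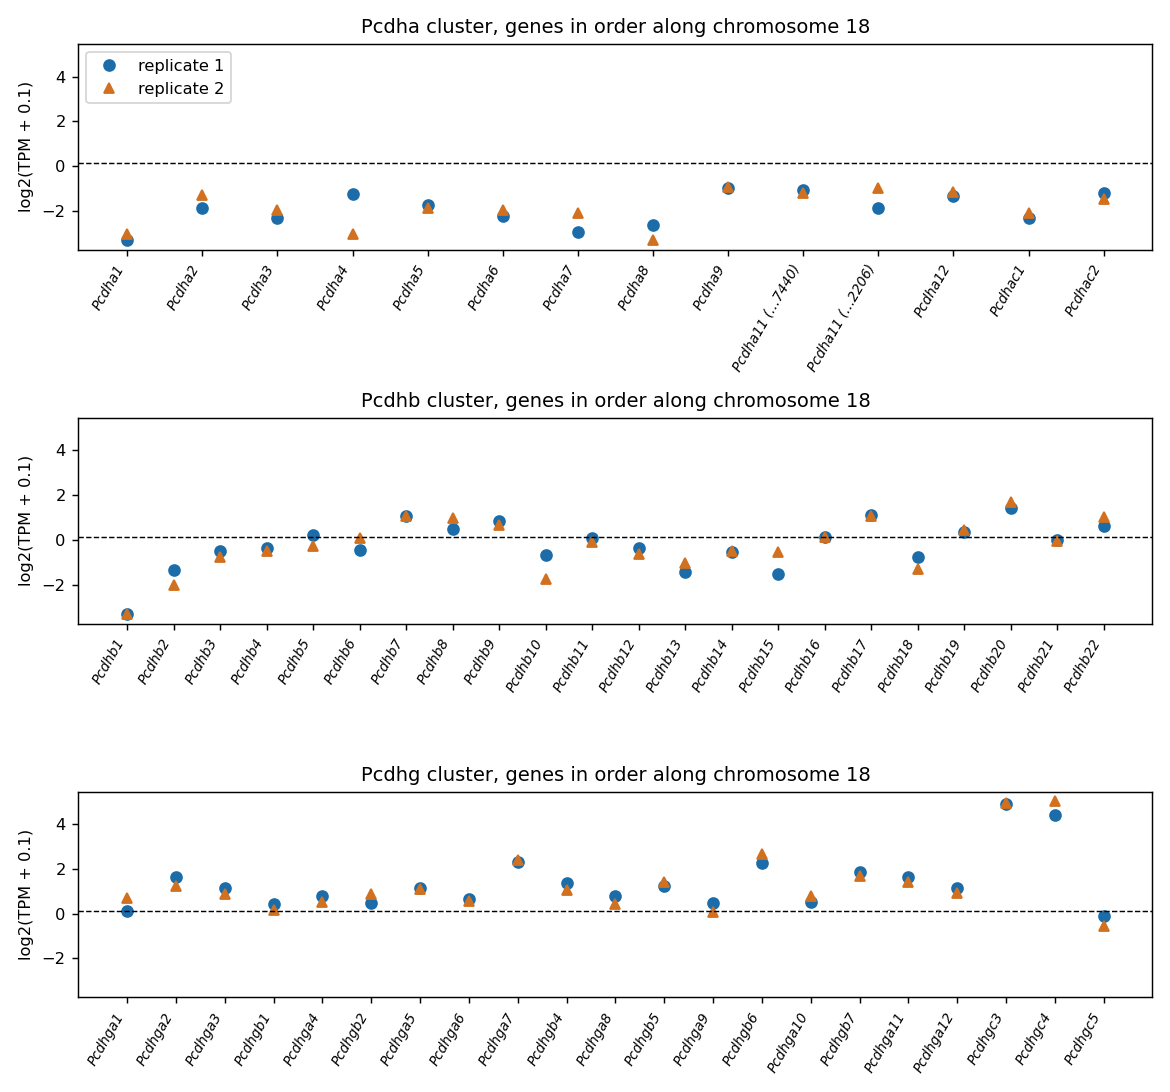
Level as log2(TPM + 0.1) of each Pcdha, Pcdhb and Pcdhg gene in order along the chromosome, with circles for replicate 1, triangles for replicate 2 and the dashed line at 1 TPM. Every Pcdha gene lies below the line, the Pcdhb genes lie on both sides of it, and Pcdhgc3 and Pcdhgc4 (29.8 and 21.4 TPM in replicate 1) rise above the other Pcdhg genes.

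Among the 14 members at a mean of 5 TPM or more, 10 had 2 or more transcripts in the tables, and the same transcript led in both libraries for 10 of these. A protein-coding transcript led in 9. The leading transcript carried 99.6% of Cdh1 in replicate 1 and 99.0% in replicate 2, 84.8% and 84.5% of Pcdh18, and 90.0% and 93.6% of Pcdhgc3. The leading share was smaller for Pcdh7 (73.2% and 70.6%), Pcdh1 (63.4% and 75.3%), Cdh2 (62.3% and 64.8%), Pcdh9 (60.8% and 68.7%) and Cdh13 (55.7% and 62.7%). Pcdh12 was the exception among these 10: its leading transcript is annotated as a retained intron and carried 46.2% and 45.5% of the gene. Members below 5 TPM were outside this count, and some of them, such as Pcdh11x, were also led by a retained intron.

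Promoter sequence was available in RefSeq for 22 members outside the clusters, on GRCm38.p6, as 250 bases before to 50 after the start of the RefSeq gene. For 5 of the 22 (Cdh7, Cdh10, Cdh12, Cdh18 and Pcdh15) that start lies more than 500 bases inside the GENCODE gene, so the window is not at the outermost GENCODE start. No entry was available for Cdh1, Cdh2, Cdh3, Cdh4, Cdh11, Cdh13, Cdh16, Pcdh1, Pcdh11x and Pcdh12, all detected except Cdh16. The detected set below thus leaves out Cdh1 and Cdh11, the highest members, and does not stand for all detected members. The CG dinucleotide, which can be methylated and is dense in CpG islands, was counted in each 300-base window (the letters CG read the same on both strands). Windows with 10 or more CG numbered 8 of 12 for detected members and 5 of 10 for the others, beside 45.8% of all 27025 genes. The median was 15 CG for detected members, 11.5 for the others and 8 for all genes. CG content thus overlapped widely between the 2 sets, from 2 to 30 in detected members and from 4 to 38 in the others. The upstream parts of 3 promoters follow, 5′ to 3′ on the gene's strand with each CG in capitals. They show the most highly expressed gene with an entry (Pcdh18, chr3:49757326-49757566, minus strand), the lowest one (Cdh20, chr1:104768270-104768519, plus strand) and the one with the fewest CG (Cdh10, chr15:18820079-18820328, plus strand, before a RefSeq start 1382 bases inside the GENCODE gene).
Pcdh18: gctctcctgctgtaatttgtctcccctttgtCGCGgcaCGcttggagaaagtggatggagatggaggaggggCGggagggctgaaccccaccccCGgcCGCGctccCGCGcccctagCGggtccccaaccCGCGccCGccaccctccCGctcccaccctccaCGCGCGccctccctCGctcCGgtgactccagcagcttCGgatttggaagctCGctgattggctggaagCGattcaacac
Cdh20: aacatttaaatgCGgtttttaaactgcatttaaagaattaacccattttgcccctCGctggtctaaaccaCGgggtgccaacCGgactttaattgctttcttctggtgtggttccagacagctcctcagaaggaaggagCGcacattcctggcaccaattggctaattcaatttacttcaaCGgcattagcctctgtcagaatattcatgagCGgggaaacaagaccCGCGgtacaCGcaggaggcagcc
Cdh10: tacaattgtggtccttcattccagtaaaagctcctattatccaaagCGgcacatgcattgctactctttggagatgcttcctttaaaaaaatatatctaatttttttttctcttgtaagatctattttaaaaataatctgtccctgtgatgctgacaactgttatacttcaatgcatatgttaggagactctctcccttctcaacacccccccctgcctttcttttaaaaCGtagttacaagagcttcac
The Pcdh18 stretch of 241 bases holds 22 CG, the Cdh20 stretch of 250 bases holds 10, and the Cdh10 stretch of 250 bases holds 2. Cdh10 was detected (1.20 TPM in replicate 1 and 1.31 TPM in replicate 2) and Cdh20 was not (0.13 and 0.09 TPM). The leading Cdh10 transcript, with 88.4% of the gene in replicate 1 and 100% in replicate 2, begins at the outer GENCODE start, so the printed stretch is not the sequence before it. No methylation was measured, and the counts are a description of the sequence.

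The 2 libraries gave similar levels for nearly all members. Expected counts were scaled by TMM, and ratios of replicate 1 over replicate 2 were formed for the 82 members past the low-count filter. Of these, 4 (4.88%) differed by more than 2-fold, beside 2.02% of the 15415 protein-coding genes past the filter. Of the 4, 2 were higher in replicate 1 (beside 1.23% of those genes) and 2 were lower there (beside 0.791%). The other members, 95.1% of the 82, stayed within 2-fold. With 1 library on each side there is no test of these ratios, and the 95% intervals given are of the same exact binomial (Clopper-Pearson) kind. The median log2 ratio was 0.013 for 19 Cdh genes, 0.064 for 51 clustered protocadherins and 0.11 for 12 non-clustered protocadherins, beside 0.0049 for protein-coding genes. Scaling to the spike-ins moved the median of all genes to -0.57, and 77 of 82 members then lay below 0. The share of all protein-coding genes below 0 was not counted. This scaling moves all ratios by nearly the same amount. That 4 members again lay more than 2-fold from the shifted median was therefore fixed in advance and is no separate check.

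Cdh15 had the largest ratio of any member past the low-count filter. It drew 232 expected counts in replicate 1 and 32 in replicate 2, a log2 ratio of 2.01 (interval 1.52 to 2.64), or 4.02-fold. With spike-in scaling it was 1.45, while the median of all genes moved to -0.57, so this is no separate check. The skeletal muscle list moved with it: all 15 of its genes past the filter were higher in replicate 1, with a median log2 ratio of 4.38, and its highest gene Acta1 stood at 906 TPM in replicate 1 and 101 TPM in replicate 2. In all, 14 of its 17 genes were detected. Myod1, the myoblast determination factor, stood at 3.27 and 1.13 TPM. The part of skeletal muscle RNA in the Cdh15 value was not tested.

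The other 3 members beyond 2-fold rested on few reads. Pcdhb10 drew 44 expected counts in replicate 1 and 9.34 in replicate 2, a log2 ratio of 1.35 (0.43 to 2.71). Pcdhb15 drew 21 and 27 counts, a log2 ratio of -1.08 (-2.06 to -0.29). The gene ENSMUSG00000102206 drew 19.3 and 28.3 counts, a log2 ratio of -1.25 (-2.28 to -0.47), and its posterior SD was 20.7% and 16.0% of the count. All 3 intervals reach inside 2-fold. In TPM, Pcdhb15 stood at 0.25 in replicate 1 and 0.58 in replicate 2 and ENSMUSG00000102206 at 0.17 and 0.41. Pcdha4, below the filter, drew 40.4 counts in replicate 1 and 1.76 in replicate 2, while its neighbours Pcdha3 and Pcdha5 drew 15.5 and 14.6, and 32.0 and 14.7. With no filter the log2 ratio of Pcdha4 was 2.82, above that of Cdh15. The posterior SD of Pcdha4 was 25.7% of the count in replicate 1 and 44.0% in replicate 2. The part of read splitting in this ratio was not tested.

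In all, 21 members within 2-fold had an interval that excluded 0. The intervals leave out the error from splitting shared reads, so those of Pcdha and Pcdhg genes are too narrow. For Pcdhg genes the median posterior SD was 4.87% of the count in replicate 1 and 6.23% in replicate 2. The biological coefficient of variation between the libraries over all genes was 17.4%, equal to a log2 spread of 0.35 for a ratio, and 13 of the 21 lay beyond it, 8 higher and 5 lower in replicate 1. Of these 13, 11 were clustered protocadherins, a class that held 51 of the 82 members past the filter. The same counts were not made over all protein-coding genes, so they do not set the members apart. The 13 ran from Pcdhb8 at -0.64 (-1.10 to -0.21) to Pcdhb18 at 0.68 (0.044 to 1.41). Pcdhgc4, the one with the most reads, had a log2 ratio of -0.52 (-0.63 to -0.41), and its transcript of mostly shared exons stood at 17.8 TPM in replicate 1 and 29.6 TPM in replicate 2. Pcdh1 had a ratio of -0.30 (-0.40 to -0.20), close to that of Cdh1. Pcdh9, Pcdh18 and Pcdh7 lay on the other side, at 0.20 (0.08 to 0.31), 0.16 (0.10 to 0.21) and 0.16 (0.037 to 0.28). The ratios of Cdh1, Pcdh1, Pcdh9, Pcdh18 and Pcdh7 were within that spread. With spike-in scaling the 3 positive ratios turned to -0.38, -0.42 and -0.42 while the median of all genes moved to -0.57.

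**Figure D4:**
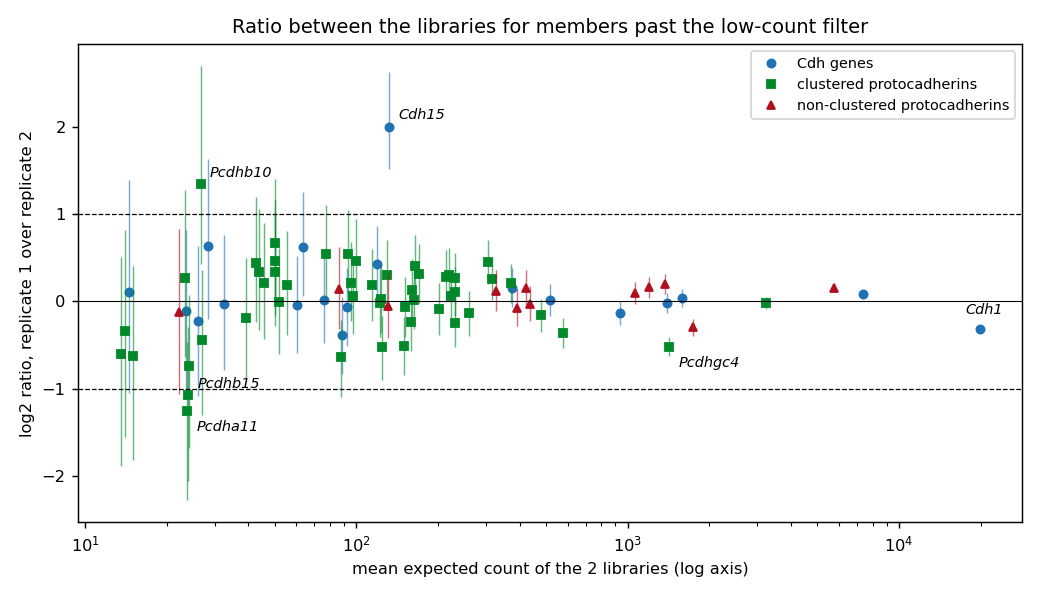
Log2 ratio of replicate 1 over replicate 2 against the mean expected count (log axis) for the 82 members past the filter, with vertical lines for 95% counting intervals and dashed lines at 2-fold. Cdh15 (2.01) stands clear of the upper line, and Pcdhb10, Pcdhb15 and the Pcdha11 entry ENSMUSG00000102206 are at the low-count end.

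Genes for the proteins that cadherins act with were expressed in nearly all cases. Of 21 catenins and linkers of the adherens junction, 20 were detected (95.2%, beside 64.3% of protein-coding genes). The beta-catenin gene Ctnnb1 was highest at 326 TPM in replicate 1 and 357 TPM in replicate 2, followed by Jup, the plakoglobin gene, at 199 and 274 TPM and Ctnna1, the alpha-catenin gene, at 137 and 161 TPM. The summed Cdh level (319 and 364 TPM) was close to that of Ctnnb1 alone, but it includes the tail-less Cdh13. These RNA levels do not tell how the proteins were paired. The lowest was Ctnna3, a catenin of heart muscle, at 0.95 and 0.30 TPM, which was also the only gene of the list beyond 2-fold (log2 ratio 1.26). Cadherin turnover and shedding genes were detected in 12 of 12 cases, with the gamma-secretase gene Ncstn at 107 and 122 TPM, the sheddase gene Adam10 at 69.4 and 71.1 TPM and, lowest, Pcsk6 at 3.03 and 3.58 TPM.

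Activators and repressors of Cdh1 were expressed together. Of 16 transcription and splicing factors tied to Cdh1 or the epithelial state, 15 were detected. Elf3, an epithelial factor that is also in the simple epithelium list, was highest at 130 TPM in replicate 1 and 177 TPM in replicate 2. Tcf4 (79.4 and 77.7 TPM) and Snai2 (67.4 and 77.7 TPM), both known repressors of Cdh1 in mesenchymal cells, came next. Snai3 was lowest, at 0.94 and 0.51 TPM. In bulk tissue these levels do not tell which cells held them.

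The list for protocadherin promoter choice and silencing was detected in 15 of 15 genes. The cohesin subunit gene Smc1a stood at 73.5 TPM in replicate 1 and 82.3 TPM in replicate 2, Ctcf, which encodes the factor that brings enhancer and chosen promoter together, at 60.9 and 63.2 TPM, and the DNA methyltransferase gene Dnmt1 at 52.2 and 54.0 TPM. Dnmt3b was lowest, at 5.66 and 5.45 TPM. The 17 effectors of protocadherins were all detected, with, by mean level, the WAVE complex genes Brk1 (166 and 175 TPM), Cyfip1 (81.7 and 93.7 TPM) and Wasf2 (67.3 and 81.6 TPM) highest and Axin1 (5.36 and 5.35 TPM) lowest. Of 18 other genes of the cadherin superfamily, 11 were detected, led by the giant cadherin gene Fat1 (19.3 and 19.8 TPM), the planar polarity gene Celsr2 (11.7 and 14.6 TPM) and the calsyntenin gene Clstn1 (11.9 and 12.5 TPM), with Cdhr3 lowest (0.19 and 0.04 TPM). Apart from Ctnna3, no gene of the 6 lists that passed the filter lay beyond 2-fold. The median log2 ratios of the lists ran from -0.14 for turnover and shedding to 0.066 for promoter choice.

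**Figure D5:**
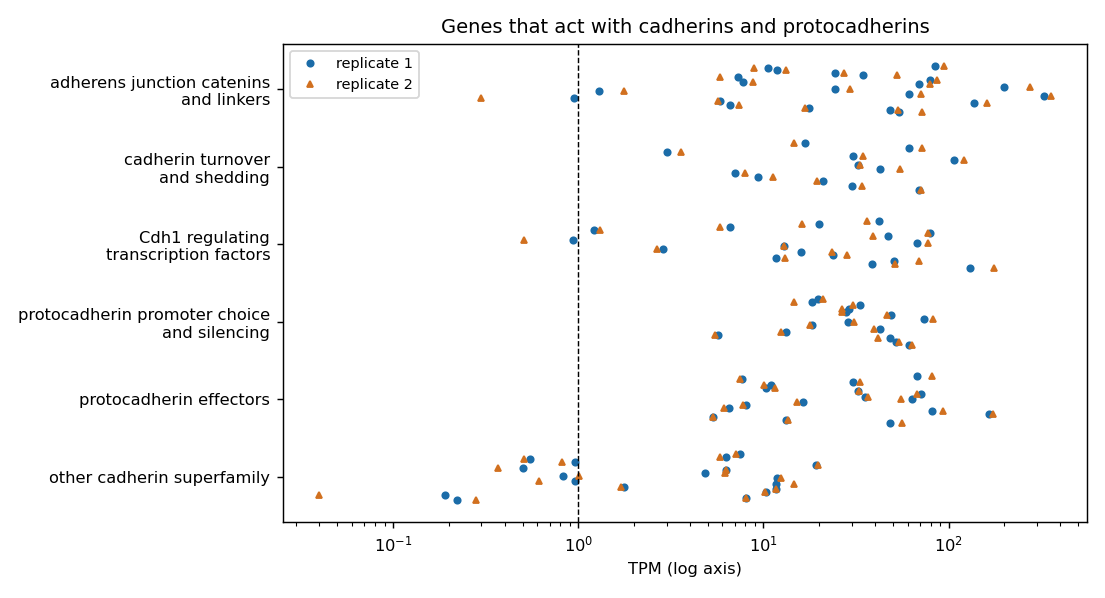
TPM on a log axis of every gene in the 6 lists of genes that act with cadherins and protocadherins, with circles for replicate 1, triangles for replicate 2 and the dashed line at 1 TPM. The lists for promoter choice, effectors and turnover lie wholly above 1 TPM, and the list of other cadherin superfamily genes spreads to 0.04 TPM.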

How the data were processed

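Total RNA of 2 biological replicates was analysed as 1 group. The deposited text files name mm10 and annotation M4; which aligner and quantifier were run is not given in the sources used here. Expected counts (estimated reads, shared reads split between features) were deposited by the authors with their posterior mean and SD. They also deposited TPM (spike-ins included) and FPKM values, both corrected for length and depth, and per transcript the percent of its gene, per the file headers. Names, types and positions came from GENCODE M21 (GRCm38), and shared exonic bases were computed from it.

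Detection meant 1 TPM in both libraries, and class medians used log2(TPM + 0.1). Expected counts were rounded, filtered over all 43346 genes with filterByExpr (minimum count 10) and scaled by the TMM method of edgeR 4.0.16 under R 4.3.3, with a prior count of 2 for ratios; DESeq2 1.42.0 gave alternative size factors. The ratio step was tested on simulated data. Python 3.11.15, pandas 2.3.3, scipy 1.17.1 and matplotlib 3.10.9 did the rest. Depth sets the precision, and a count of 0 allows up to 3 counts. With 1 group no count test had a contrast, so no p-value was computed across genes, and p-values would measure only the spread between these pools.

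The members, lists and tests were chosen with earlier results of these data known. Named were all Cdh genes and non-clustered protocadherins at a mean of 1 TPM, the 3 highest and the lowest of each cluster, members beyond 2-fold or at 0, the 3 highest and the lowest of each pathway list and the highest of each marker list; some values under this rule are not reported here. The lower Cdh genes, Pcdh8, Pcdh10, Pcdha3, Pcdha4, Pcdha5, Pcdhac1, Pcdhac2, Pcdha8, Pcdhb8, Pcdhb18, Pcdhga1, Pcdhga7, Pcdhga9, Umod, Upk1b, Des and Myod1 were named after their values were seen.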

Additional observations from a re-analysis of the deposited data

Results flagged for a closer look

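A gene outside the rule was assigned reads. Pcdhgb8 is annotated as a polymorphic pseudogene rather than a protein-coding gene and was therefore no member, yet the authors' estimate gave it 61.7 counts in replicate 1 and 36.4 counts in replicate 2. Both lie above 3, the most that a count of 0 allows, but this does not tell whether the reads came from the gene itself. Its level was 0.44 and 0.47 TPM, under that of the lowest Pcdhg member, Pcdhgc5 (0.84 and 0.59 TPM). It lies within the Pcdhg cluster (chromosome 18, 37761801 to 37841870), whose constant exons are common to several genes, and the part of reads on shared exons in its counts was not tested.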

How the results depend on the processing

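Detection followed its threshold: 28 members passed at 2 TPM and 13 at 5 TPM, while 81 had 10 expected counts in both libraries, against 47 at 1 TPM. By the same 3 thresholds there were 7, 6 and 19 Cdh genes and 12, 2 and 50 clustered protocadherins, and 5 non-clustered ones at 5 TPM. With FPKM, 16 clustered protocadherins passed. With 1 replicate left out, 48 to 51 members passed. The share of all protein-coding genes was counted only at 1 TPM and at 10 expected counts, so the other numbers do not set the members apart. Class medians kept their order under every pseudocount, unit, filter and single library tried, but sums did not: non-clustered minus clustered was -0.087 and non-clustered minus Cdh was -1.56, also without the short Pcdhgc4 transcript (-1.56), where non-clustered minus clustered was 0.22. The sums without that transcript, and medians without the 4 further Cdh genes, were chosen after seeing the data.

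Members beyond 2-fold numbered 10 with spike-in scaling (1 higher, 9 lower in replicate 1), 8 with no filter (4 higher, 4 lower, the added ones all Pcdha genes), 11 at 1.5-fold (5 higher, 6 lower) and 3 from unscaled TPM + 0.1 with no filter (3 higher, among them Pcdha4, and 0 lower; the offset of 0.1 shrinks ratios of genes this low). With each of the Pcdha and Pcdhg clusters summed there were 3, of which 1 was lower. These settings were not counted over all protein-coding genes, so the numbers do not set the members apart. No single-gene ratio beyond 2-fold changed sign. Under spike-in scaling this was fixed in advance, since the shift of -0.57 is smaller in size than any such log2 ratio. Apart from the shift of -0.57 of all genes under spike-in scaling, the cause of these changes was not tested. No paired analysis was possible because both libraries belong to 1 group. Depth limits the ratios of the lowest members, whose counting intervals span more than 2-fold.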
